A study of Mus musculus with 12 samples.

Results

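The genes described here are induced by interferon, and they were followed in mouse brown adipose tissue, the fat depot that burns fuel to make heat. The list holds 44 gene symbols chosen by known function. A member counted as measured where a probe set carried its symbol and no other, and where several did, the brightest over all arrays was used. This left 41 members among the 22180 genes measured on the arrays. Gbp2 and Oas1a lay only on probe sets shared with other genes, and Ifi44 had no probe set under its symbol, so these 3 are not described.

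RNA of whole brown fat from male mice, 10 weeks old and on standard chow, was measured on 12 whole-transcript arrays, 3 in each of 4 groups. The groups were wild-type (WT) mice at room temperature (22 °C), Zbtb7b knockout (KO) mice at 22 °C, WT mice after 4 h at 4 °C, and KO mice after 4 h at 4 °C. Zbtb7b encodes a zinc-finger transcription factor known for its part in the choice of T cells between the CD4 and CD8 lineages, and it has been studied in brown fat formation. Whether the knockout is in the whole body or in 1 cell type, how it was made and on which strain were not given in the sources used here. The titles call the arrays biological replicates, while a description field numbers pools and names liver and another knockout, so whether 1 array stands for 1 mouse or for a pool is not settled. Accordingly, a p-value here reflects only how far these arrays of a group lie from each other, which may include technical scatter, and precision is bounded by having 3 arrays in a group.

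Interferons are signalling proteins released when cells sense viral or other foreign nucleic acid. Type I interferons (the alpha and beta forms) act through a receptor whose kinases activate transcription factors, STAT2 with IRF9 among them, that bind the interferon-stimulated response element. Type II interferon (gamma), made mostly by T cells and NK cells, acts through a receptor of its own and a second element, and its classical targets are guanylate-binding proteins, immunity-related GTPases and the peptide transporter TAP. In fat the RNA of such genes can come from adipocytes, endothelium, macrophages or lymphocytes.

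Promoter sequence was at hand for 28 of the 41 members, as 250 bases before and 50 after an annotated start (RefSeq, build GRCm38.p6). The core of the response element, searched as GAAANNGAAA on both strands, was present in 16 of these 28 genes (57.1%), against 3.99% of the 27025 genes with a window. The core of the gamma element, searched as TTCNNNGAA, which reads the same on both strands, was present in 9 of the 28 (32.1%) against 9.55% of all genes. Both were found in Gbp5, Gbp7, Igtp, Irgm2 and Bst2, and in Bst2 the matches overlapped. A match of letters is a description of these windows and not a site shown to be bound. The stretches below come from members that were called with cold and have a match to GAAANNGAAA before the start. Rsad2 and Bst2 also do and are not shown. Gbp9, Gbp4 and Oas2 had no window, and Isg20 had one without a match to GAAANNGAAA. The first 5 stretches belong to guanylate-binding proteins and immunity-related GTPases, and the last 2 belong to antiviral genes. Each is written 5′ to 3′ on the strand of its gene, with matches to GAAANNGAAA or its reverse complement in capitals.
Gbp3, chr3:142559979-142560034, plus strand: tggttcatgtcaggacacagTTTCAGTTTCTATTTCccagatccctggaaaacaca
Gbp5, chr3:142496749-142496798, plus strand: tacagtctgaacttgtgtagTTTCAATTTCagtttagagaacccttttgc
Gbp7, chr3:142530263-142530312, plus strand: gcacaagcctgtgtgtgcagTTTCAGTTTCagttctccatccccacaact
Igtp, chr11:58199502-58199551, plus strand: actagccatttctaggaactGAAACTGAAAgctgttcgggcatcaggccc
Irgm2, chr11:58214893-58214942, plus strand: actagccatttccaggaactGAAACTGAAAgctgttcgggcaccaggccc
Ifit1, chr19:34640765-34640833, plus strand: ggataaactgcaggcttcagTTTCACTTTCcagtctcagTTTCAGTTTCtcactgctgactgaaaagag
Oas3, chr5:120777705-120777754, minus strand: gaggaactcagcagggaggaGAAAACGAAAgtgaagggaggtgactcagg
The stretches of Igtp and Irgm2, neighbouring genes, carry the same capitals in nearly the same surroundings. Several other members are also neighbours, namely Gbp5, Gbp7 and Gbp3 on chromosome 3, Gbp9 and Gbp4 on chromosome 5, and Tap1 and Tap2, which lie among proteasome genes on chromosome 17. Gbp and Irg genes are families of similar sequence, so a probe set of 1 may also pick up a relative.

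The labels were checked first. Zbtb7b lay between 4.26 and 4.76 on the 6 WT arrays and between 2.96 and 3.62 on the 6 KO arrays, in log2 signal, the unit of every level below. Ucp1, the uncoupling protein that defines brown fat, lay between 11.55 and 12.95 on all 12 arrays, and the liver gene Alb between 1.21 and 2.75, below the median of all probe sets on nearly every array (2.63 to 2.83). The second KO array at 22 °C stood apart for the interferon-induced genes. It was the highest of all 12 arrays for 22 of the 41 members, and its median member lay 0.79 above the WT mean at 22 °C, against 0.16 and 0.12 on the other KO arrays at 22 °C. For the GTPases and the transporter together that median was 1.69. The same array had the highest mean of the 8 NK and cytotoxic cell markers, 3.91 against 2.24 to 3.14 on the other 11 arrays. Ncr1 lay at 5.49, Nkg7 at 6.73 and Gzmb at 4.60 there. Klrb1c (1.69 there) and Eomes (2.25 there) did not stand out, with ranges of 1.10 to 2.30 and 2.23 to 2.86 over the 12 arrays. The mean of 10 T cell markers on the second KO array at 22 °C was 3.94, equal to that of the second WT array in the cold. In the comparison of genotypes at 22 °C, 0 of the 8 NK markers and 1 of the 10 T cell markers passed, the latter higher in KO. Over all genes 0.55% passed there. Results of KO mice that use this array are therefore given with and without it where it moves them. In RNA of whole tissue, fewer cells of a type and less RNA per cell cannot be told apart. The arrays also differed widely in 12 skeletal muscle genes. Their mean lay at 3.23, 7.10 and 2.76 on the WT and at 9.24, 8.12 and 3.23 on the KO arrays at 22 °C. In the cold it lay at 5.73, 7.83 and 8.45 in WT and at 8.97, 4.80 and 8.80 in KO. None of the 12 was called in any comparison, and their part in the differences below was not tested.

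**Figure D1:**
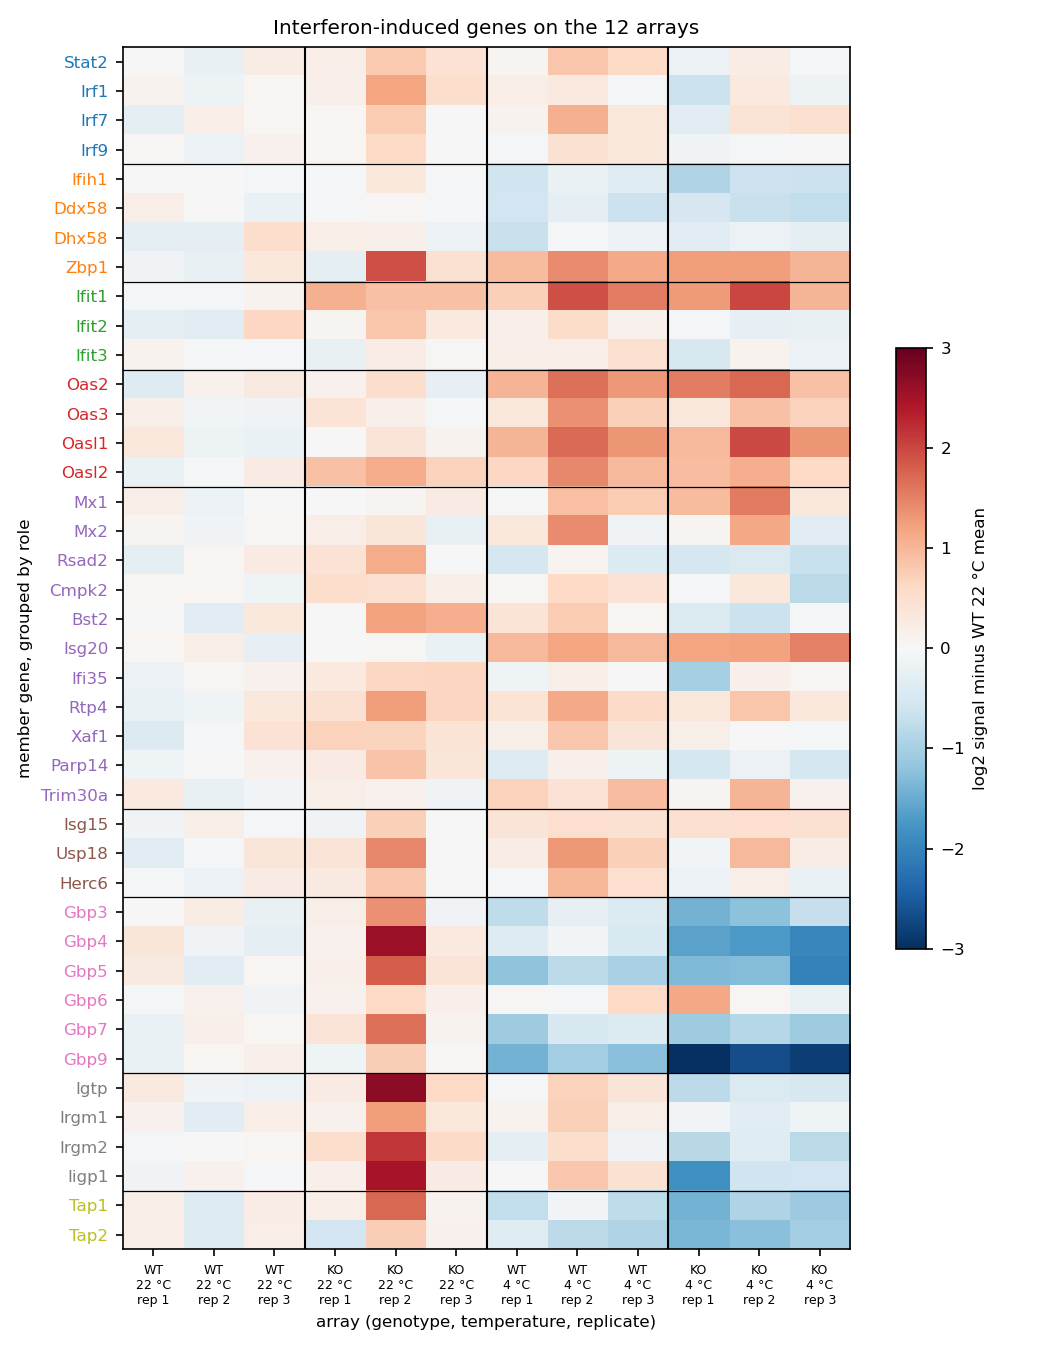
Heat map of the 41 measured members (rows, grouped by role) on the 12 arrays (columns, 3 per group), coloured by the log2 signal minus the member's mean on the WT arrays at 22 °C, on a scale from -3 to 3. The second KO array at 22 °C is high over most rows, and the guanylate-binding proteins are low on the 3 KO arrays in the cold.

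Cold in KO mice was followed by lower RNA of most guanylate-binding proteins, immunity-related GTPases and both TAP subunits. The 3 antiviral genes that rose were no larger a share of the members than the genes that rose were of all genes. A gene was called where limma's moderated test gave a Benjamini-Hochberg adjusted p under 0.05 over all 22180 genes. Of the 41 members, 16 fell and 3 rose between 22 °C and 4 °C in KO mice, where 10.8% of all genes fell and 8.34% rose. The median member difference was -0.54, against 0.00 over all genes. In WT mice 2 members fell and 6 rose, where 7.98% of all genes fell and 9.39% rose, with a median of 0.35 against -0.02 over all genes. The 2 that fell in WT were likewise no larger a share than among all genes. Of the 22 members called in either genotype, 3 rose in both, 2 fell in both, 14 fell in KO with no call in WT, and 3 rose in WT with no call in KO. How many of all genes have each of these patterns was not counted. A call in 1 genotype alone is also not a test of a difference between the genotypes. No member passed the test of the difference between these cold responses, the interaction, in which 0.0271% of all genes passed. At an unadjusted p under 0.05, 23 members had a lower cold response in KO, against 5.9% of all genes. With 1 array left out this number ranged from 12 (without the second WT array in the cold) to 25, and it was 15 without the first KO array in the cold, the second WT array at 22 °C or the second KO array at 22 °C.

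Guanylate-binding proteins (GBPs) are large GTPases that gather on vacuoles holding bacteria or parasites and help to break them open. Gbp9 had the largest difference of any member in the cold comparison of KO mice. At 22 °C it lay at 5.76, 6.02 and 6.12 on the WT arrays and at 5.84, 6.70 and 5.99 on the KO arrays. At 4 °C it lay at 4.56, 4.94 and 4.72 on the WT arrays and at 2.64, 3.30 and 3.15 on the KO arrays. All 6 cold arrays were below all 6 arrays at 22 °C, and within the cold every KO array was below every WT array. Gbp9 fell by 1.23 ± 0.23 (log2, SE, n = 3 per group) in WT mice (limma, adjusted p = 0.00303) and by 3.15 ± 0.23 in KO mice (adjusted p = 7.51e-06). Its KO mean in the cold, 3.03, was near the array medians, so the size of its fall in KO may be cut short by background and is given on the log2 scale only. Without the second KO array at 22 °C the fall in KO was 2.89.

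Gbp4, a close relative whose gene follows Gbp9 on the chromosome, lay at 5.18, 7.61 and 5.33 on the KO arrays at 22 °C and at 3.44, 3.33 and 3.09 on those at 4 °C. On the WT arrays it lay at 5.41, 4.94 and 4.79 at 22 °C and at 4.66, 4.96 and 4.59 at 4 °C, where the groups overlapped. It fell by 2.75 ± 0.48 in KO mice (limma, adjusted p = 0.00176), or by 1.97 without the second KO array at 22 °C, and the difference in WT was -0.31 (adjusted p = 0.746). Gbp5, which takes part in inflammasome responses, went from 5.08, 6.74 and 5.32 to 3.62, 3.63 and 2.90 on the KO arrays and from 5.19, 4.60 and 4.99 to 3.72, 4.15 and 3.95 on the WT arrays. In both genotypes the cold arrays were all lower, and the call was made in KO (-2.33 ± 0.36, adjusted p = 0.000846) and missed in WT (-0.99 ± 0.36, adjusted p = 0.0854). Without the second KO array at 22 °C, whose spread enters every comparison, the WT difference of Gbp5 also passed (adjusted p = 0.0105) and the KO difference was -1.82. The KO means of Gbp4 and Gbp5 in the cold, 3.29 and 3.38, were also low, so background may cut short the size of their falls in KO.

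Gbp7, which takes part in oxidative defence against bacteria, lay at 7.82, 9.08 and 7.53 on the KO arrays at 22 °C and at 6.37, 6.58 and 6.36 on the KO arrays at 4 °C. The groups did not overlap, and Gbp7 fell 3.26-fold in KO (log2 -1.71 ± 0.32, limma adjusted p = 0.0028), with -1.24 when the second KO array at 22 °C was left out. In WT it lay at 7.23, 7.58 and 7.48 before and at 6.37, 6.96 and 7.03 in the cold, a difference of -0.64 that was not called (adjusted p = 0.215, and 0.036 without the same KO array). Gbp3 lay at 5.27, 6.47 and 4.98 on the KO arrays at 22 °C and at 3.68, 3.87 and 4.41 on those in the cold. On the WT arrays it lay at 5.09, 5.32 and 4.87 at 22 °C and at 4.33, 4.85 and 4.69 in the cold. Gbp3 fell by 1.59 ± 0.33 in KO (adjusted p = 0.00471; -1.14 without the second KO array at 22 °C), and its WT difference was -0.47 (adjusted p = 0.394). Gbp6 was at 1.29 to 2.66 on all arrays, at or below the array medians, and is not described further. Of the 6 GBPs measured, 5 were called lower in KO and 1 in WT. In WT the cold arrays of 4 GBPs (Gbp9, Gbp5, Gbp7 and Gbp3) nevertheless lay below all WT arrays at 22 °C, against 3994 of the 22180 genes.

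**Figure D2:**
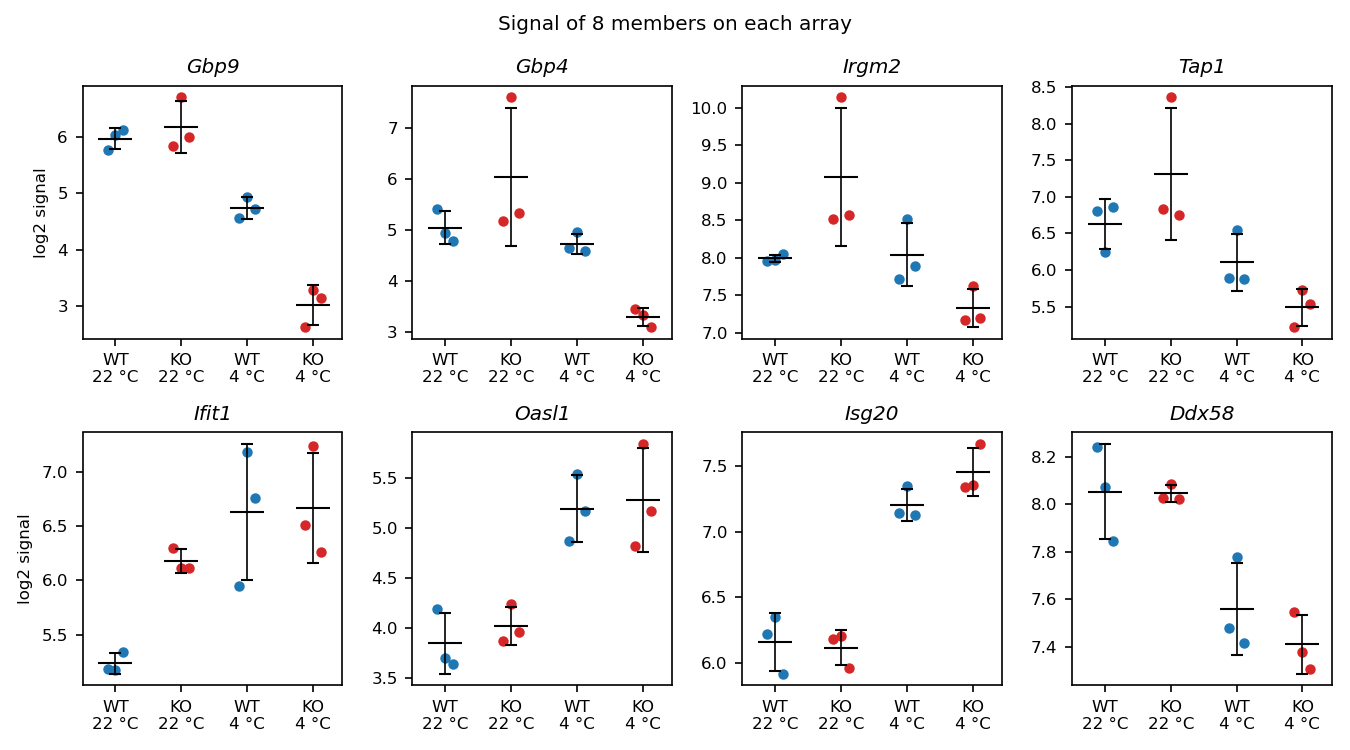
Log2 signal of 8 members on each array (points), with the mean and SD of each group (bars, n = 3). Gbp9 is lowest in KO mice in the cold, Isg20 and Oasl1 are higher in the cold in both genotypes, and Ddx58 is lower in the cold in both.

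Immunity-related GTPases (IRGs) are a mouse family that coats and disrupts the vacuoles of intracellular parasites. Igtp (Irgm3) and Irgm2 belong to the regulatory members of the family, and Iigp1 is an effector. Irgm2 lay at 8.51, 10.14 and 8.57 on the KO arrays at 22 °C and at 7.17, 7.62 and 7.19 on those in the cold, without overlap. In WT mice it lay at 7.96, 7.97 and 8.05 at 22 °C and at 7.72, 8.51 and 7.89 in the cold, so that the cold arrays lay on both sides. Irgm2 fell 3.36-fold in KO (log2 -1.75 ± 0.36, limma adjusted p = 0.00466), or by 1.22 without the second KO array at 22 °C, against a difference of 0.05 in WT (adjusted p = 0.956).

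Igtp lay at 6.57, 9.0 and 6.91 on the KO arrays at 22 °C and at 5.52, 5.89 and 5.83 in the cold. Its WT arrays lay at 6.60, 6.20 and 6.14 at 22 °C and at 6.28, 7.0 and 6.71 in the cold. Igtp fell by 1.75 ± 0.48 in KO (limma, adjusted p = 0.0217), yet this size rests much on 1 array, since it was 0.99 without the second KO array at 22 °C (adjusted p = 0.0139), and the call was lost without the first KO array in the cold (-1.64, adjusted p = 0.0664). Iigp1 went from 6.55, 8.87 and 6.65 to 4.56, 5.81 and 5.83 on the KO arrays, and it lay at 6.31, 6.53 and 6.37 and then at 6.41, 7.21 and 6.86 on the WT arrays. The groups did not overlap in KO, where Iigp1 fell by 1.95 ± 0.53 (adjusted p = 0.0209), or by 1.20 without the second KO array at 22 °C, and the call was lost without the first KO array in the cold (-1.53, adjusted p = 0.0831). Irgm1, the remaining IRG, lay at 4.74, 5.85 and 4.95 before and at 4.52, 4.27 and 4.47 after cold in KO, without overlap, and missed the threshold (-0.76, adjusted p = 0.0641), with -0.98 (0.0301) without the first and -0.43 (0.229) without the second KO array at 22 °C. All 4 IRGs had a difference above 0 in WT, between 0.05 and 0.42, and none was called there.

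TAP1 and TAP2 form the transporter that carries peptides into the endoplasmic reticulum for loading onto MHC class I. Tap1 lay at 6.83, 8.36 and 6.75 on the KO arrays at 22 °C and at 5.22, 5.72 and 5.53 on those in the cold. Tap1 fell 3.53-fold in KO (log2 -1.82 ± 0.37, limma adjusted p = 0.00425; -1.30 without the second KO array at 22 °C). In WT it went from 6.81, 6.24 and 6.85 to 5.89, 6.55 and 5.87, where 1 cold array lay above 1 array at 22 °C and the difference was -0.53 (adjusted p = 0.392). Tap2 lay at 5.63, 6.96 and 6.34 on the KO arrays at 22 °C and at 4.85, 4.97 and 5.21 in the cold, and on the WT arrays at 6.41, 5.83 and 6.42 and then at 5.85, 5.44 and 5.32. Tap2 fell 2.46-fold in KO (log2 -1.30 ± 0.29, adjusted p = 0.00704; -0.98 without the second KO array at 22 °C), and its WT difference was -0.69 (adjusted p = 0.133).

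Across the 12 GTPases and transporter subunits the median cold difference was -1.75 in KO, with 10 called lower, and -0.39 in WT, with 1 called lower. Without the second KO array at 22 °C the median in KO was -1.21, again with 10 called. On the same KO arrays the mean of the NK markers lay between 2.82 and 3.91 at 22 °C and between 2.49 and 2.73 in the cold, with 1 of 8 called lower. That of the T cell markers lay between 3.39 and 3.94 at 22 °C and between 3.14 and 3.50 in the cold, with 1 of 10 called lower. Over all genes 10.8% fell. The part of these markers in the fall of the GTPases was not tested. Across the other 29 members the median was -0.27 in KO, with 6 called lower and 3 higher (-0.08 without the second KO array at 22 °C), and 0.47 in WT, with 1 called lower and 6 higher. This division of the members follows their known roles and was made with their values in view, and it is given as a description.

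**Figure D3:**
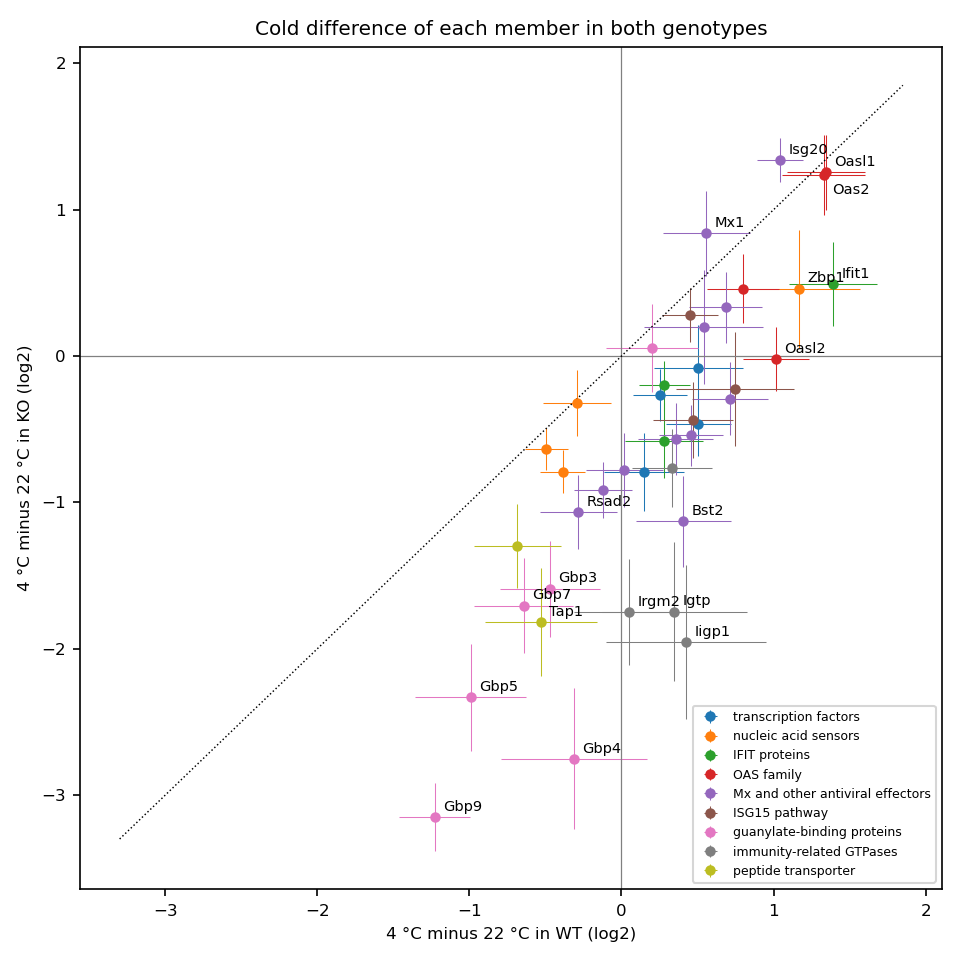
Cold minus 22 °C difference (log2) of each of the 41 members in WT (horizontal axis) and in KO (vertical axis), with SE bars; the dotted line marks equal differences. Of the 41 members, 39 lie below the line, among them Gbp9 (-1.23 in WT, -3.15 in KO), and Isg20 and Mx1 lie above it.

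The 6 members that rose with cold in WT were antiviral genes, and 3 of them also rose in KO. Isg20, an exonuclease that degrades RNA, lay at 6.22, 6.35 and 5.92 on the WT arrays and at 6.18, 6.20 and 5.96 on the KO arrays at 22 °C. In the cold it lay at 7.14, 7.34 and 7.12 in WT and at 7.34, 7.36 and 7.67 in KO. Every cold array was above every array at 22 °C, and Isg20 rose 2.06-fold in WT (log2 1.04 ± 0.15, limma adjusted p = 0.000549) and 2.53-fold in KO (log2 1.34 ± 0.15, adjusted p = 9.55e-05; 1.38 without the second KO array at 22 °C).

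The 2′-5′ oligoadenylate synthetases (OAS) make the short messenger that switches on RNase L, and Oasl1 is a relative without that activity. Oas2 went from 4.66, 5.19 and 5.32 to 6.08, 6.72 and 6.37 in WT, and from 5.20, 5.59 and 4.81 to 6.60, 6.78 and 5.93 in KO. All cold arrays were higher, and Oas2 rose 2.51-fold in WT (limma, adjusted p = 0.00503) and 2.36-fold in KO (adjusted p = 0.00667). Oasl1, which holds back the translation of Irf7, went from 4.20, 3.71 and 3.65 to 4.87, 5.54 and 5.17 in WT, and from 3.87, 4.24 and 3.96 to 4.82, 5.84 and 5.17 in KO. It rose by 1.34 ± 0.26 in WT (adjusted p = 0.00323) and by 1.26 ± 0.26 in KO (adjusted p = 0.00435). Oas2, Oasl1 and Isg20 had interaction values between -0.09 and 0.30, and none passed. Without the second KO array at 22 °C the KO differences of Oas2 and Oasl1 were 1.43 and 1.36.

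Oasl2 started from different levels, at 6.01, 6.17 and 6.47 on the WT arrays and at 7.10, 7.34 and 6.90 on the KO arrays at 22 °C. In the cold it lay at 6.85, 7.67 and 7.18 in WT and at 7.15, 7.32 and 6.81 in KO. The WT arrays at 22 °C were thus below all 9 others, and Oasl2 rose 2.02-fold with cold in WT (log2 1.01 ± 0.22, limma adjusted p = 0.00654), against a difference of -0.02 in KO (adjusted p = 0.969). Ifit1, which binds viral RNA caps, had a like order of groups, with WT arrays at 5.19, 5.18 and 5.34 at 22 °C against KO arrays at 6.30, 6.12 and 6.12. In the cold Ifit1 lay at 5.95, 7.18 and 6.76 in WT and at 6.51, 7.24 and 6.26 in KO, and it rose 2.63-fold in WT (log2 1.39 ± 0.29, adjusted p = 0.00545), with a difference of 0.49 in KO (adjusted p = 0.295). Neither passed the interaction test (Oasl2 -1.03, adjusted p = 0.29; Ifit1 -0.90, adjusted p = 0.469).

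Oas3 was dim, at 2.79, 2.54 and 2.52 and then 2.95, 3.98 and 3.33 in WT, and at 3.02, 2.78 and 2.57 and then 2.95, 3.50 and 3.30 in KO. It rose by 0.80 ± 0.24 in WT (limma, adjusted p = 0.0353) from a level near the array medians, and the KO difference was 0.46 (adjusted p = 0.221). This call of Oas3 was lost without the first (0.89, adjusted p = 0.0516), second (0.76, 0.0988) or the third (0.75, 0.0968) WT array at 22 °C, and without the second (0.52, 0.133) or the third (0.85, 0.0731) WT array in the cold.

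Of the 4 nucleic acid sensors, 2 fell. Ddx58 encodes RIG-I, which recognises RNA with a triphosphate end, and it lay at 8.24, 8.07 and 7.84 (WT) and at 8.03, 8.08 and 8.02 (KO) at 22 °C. In the cold it lay at 7.48, 7.78 and 7.42 in WT and at 7.54, 7.38 and 7.31 in KO, below every array at 22 °C. Ddx58 fell by 0.63 ± 0.14 in KO (limma, adjusted p = 0.00722; -0.61 without the second KO array at 22 °C) and by 0.49 ± 0.14 in WT (adjusted p = 0.0303). The WT call was lost without the first (-0.40, adjusted p = 0.112) or second (-0.48, 0.08) WT array at 22 °C and without the first (-0.45, 0.105) or the third (-0.42, 0.121) WT array in the cold. Ifih1 encodes MDA5, the sensor of long double-stranded RNA, and went from 6.95, 7.33 and 6.93 to 6.11, 6.38 and 6.36 in KO and from 7.02, 7.01 and 6.98 to 6.41, 6.81 and 6.63 in WT. Its arrays did not overlap in either genotype, and the call was made in KO (-0.79 ± 0.15, adjusted p = 0.00261; -0.66 without the second KO array at 22 °C) and missed in WT (-0.39 ± 0.15, adjusted p = 0.0992). Dhx58, a regulator of both sensors, lay between 3.61 and 4.81 with no call. Zbp1, a sensor of Z-form nucleic acid, lay at 3.97, 3.86 and 4.40 and then at 5.02, 5.49 and 5.21 in WT, a difference of 1.16 ± 0.40 (adjusted p = 0.0691). On the KO arrays Zbp1 lay at 3.82, 6.0 and 4.54 and then at 5.33, 5.33 and 5.09. Without the second KO array at 22 °C Zbp1 passed in WT (adjusted p = 0.0034, and 0.0227 without the first KO array there) and in KO (1.07, adjusted p = 0.0117).

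Among the other effectors, Rsad2 encodes viperin, an enzyme that makes a chain-terminating nucleotide, and went from 7.60, 8.26 and 7.17 to 6.63, 6.72 and 6.48 in KO and from 6.85, 7.21 and 7.39 to 6.64, 7.23 and 6.73 in WT. Rsad2 fell 2.09-fold in KO (log2 -1.07 ± 0.25, limma adjusted p = 0.0105; -0.77 without the second KO array at 22 °C), and the WT arrays overlapped (-0.29, adjusted p = 0.523). Parp14, an ADP-ribosyltransferase, went from 6.81, 7.42 and 6.92 to 6.02, 6.37 and 6.02 in KO and from 6.42, 6.55 and 6.69 to 6.18, 6.72 and 6.41 in WT. It fell by 0.92 ± 0.19 in KO (adjusted p = 0.00473; -0.73 without the second KO array at 22 °C), with -0.12 in WT (adjusted p = 0.746). Cold arrays of KO mice were all below the KO arrays at 22 °C for both genes.

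Bst2 encodes tetherin, which holds budding virus at the cell surface, and went from 5.45, 6.68 and 6.57 to 5.04, 4.84 and 5.45 in KO, with WT arrays at 5.47, 5.16 and 5.79 and then at 5.88, 6.24 and 5.52. Bst2 fell by 1.13 ± 0.31 in KO (limma, adjusted p = 0.0227), and the call was lost without the second (-0.90, adjusted p = 0.0959) or the third (-0.96, 0.0889) KO array at 22 °C and without the first (-1.10, 0.0606) or second (-0.99, 0.0825) KO array in the cold. Ifi35, a partner of NMI, went from 6.61, 6.93 and 6.96 to 5.31, 6.46 and 6.38 in KO, with WT arrays at 6.15, 6.36 and 6.44 and then at 6.19, 6.50 and 6.32. Its call in KO (-0.78 ± 0.25, adjusted p = 0.0494) is the least stable here: it was lost in 10 of 12 leave-one-out fits, with differences of -0.41 (adjusted p = 0.105, without the first KO array in the cold) to -0.89 (0.0566, without the first KO array at 22 °C). The other arrays whose loss ended it were the 3 WT arrays at 22 °C and the 3 in the cold (-0.78, 0.061 to 0.0677), and the second (-0.73, 0.132) and the third (-0.72, 0.137) KO arrays at 22 °C. A second, dim probe set of Ifi35, with a mean of 1.52, was not used.

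No transcription factor of the list was called in any comparison with all 12 arrays. Irf1, the factor most directly induced by interferon gamma, lay at 6.11, 7.14 and 6.48 on the KO arrays at 22 °C and at 5.30, 6.25 and 5.80 in the cold, a difference of -0.79 (limma, adjusted p = 0.0553), while its WT arrays spanned 5.79 to 6.24 over both temperatures. The difference of Irf1 in KO passed without the first KO array at 22 °C (-1.02, adjusted p = 0.0233) or the second KO array in the cold (-1.03, 0.0232), and also with the signal filter (0.0278), trended robust moderation (0.0453) or a replicate block (0.0413), while it was -0.51 without the second KO array at 22 °C (0.213). Stat2 lay at 5.79, 5.57 and 6.02 and then at 5.88, 6.63 and 6.38 in WT, and at 5.98, 6.58 and 6.23 and then at 5.62, 6.02 and 5.76 in KO. Its differences, 0.51 in WT and -0.46 in KO, had opposite signs and neither passed (adjusted p = 0.138 and 0.172). Without the first WT array in the cold the WT difference of Stat2 passed (0.72, adjusted p = 0.0471), and without the second KO array at 22 °C its KO difference was -0.31. Irf7 and Irf9, a factor of the late type I response and the partner of STAT2, had differences between -0.27 and 0.50.

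The remaining members were not called with all 12 arrays. Mx1, a dynamin-like GTPase that blocks influenza virus, lay between 1.23 and 2.96, and Mx2 between 1.86 and 3.60, mostly below the array medians. Without the third KO array in the cold Mx1 passed in KO (1.15, adjusted p = 0.0103; 0.84, 0.0628 with all arrays), and it did so also without the first WT array in the cold (0.0412). Isg15, a ubiquitin-like modifier, lay between 2.80 and 3.62, with differences of 0.45 in WT and 0.28 in KO. Without the second KO array at 22 °C, which was its highest, Isg15 passed in WT (0.45, adjusted p = 0.0242) and in KO (0.53, 0.0206). Usp18, the protease that removes ISG15, lay between 5.79 and 7.56 with WT and KO differences of 0.75 and -0.23. Rtp4, which restrains flavivirus, lay at 5.18, 5.26 and 5.69 and then at 5.79, 6.52 and 5.96 in WT without overlap (0.71, adjusted p = 0.071, and 0.0466 without the second KO array at 22 °C), and at 5.84, 6.63 and 6.02 and then at 5.73, 6.20 and 5.69 in KO. The pro-apoptotic Xaf1 had a WT difference of 0.46 and a KO difference of -0.54, the ligase Herc6 0.47 and -0.44, and the mitochondrial kinase Cmpk2, a neighbour of Rsad2, 0.36 and -0.57. Xaf1 passed in WT without the third WT array at 22 °C (0.67, adjusted p = 0.0435), and Cmpk2 in KO without the second KO array in the cold (-0.81, 0.0391). Ifit2 and Ifit3 had WT differences of 0.28 each and KO differences of -0.58 and -0.20. Trim30a, a restraint on inflammatory signalling, lay between 3.39 and 4.63 with differences of 0.69 in WT (adjusted p = 0.0713, and 0.0177 without the second KO array in the cold) and 0.33 in KO. For 18 of the 41 members the fitted cold difference was above 0 in WT and below 0 in KO. Without the second KO array at 22 °C the KO differences of Usp18 (0.20), Irf7 (0.17) and Oasl2 (0.09) were above 0 instead. Both cold comparisons enter the interaction, so the count of 18 and the 23 members below an unadjusted p of 0.05 are not separate observations.

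At 22 °C the knockout had somewhat higher values than WT for nearly all members, and none of these differences passed. The differences were above 0 for 39 of 41 members, with a median of 0.47 against 0.01 over all genes. Over all genes 0.55% passed, and no member did (limma). At an unadjusted p under 0.05, 12 members were higher and 0 lower, against 6.1% and 5.3% of all genes. For 9 members the 3 KO arrays were all above the 3 WT arrays, against 9% of all genes. The smallest adjusted p was that of Oasl2 (0.89 ± 0.22, adjusted p = 0.102), whose arrays are given above, followed by Ifit1 (0.94 ± 0.29, adjusted p = 0.209) and Rtp4 (0.79 ± 0.25, adjusted p = 0.224). Isg20 (-0.05) and Ddx58 (-0.01) were the 2 members below 0. The value of 1 array decides much of this shift: without the second KO array at 22 °C the median was 0.18, 32 members were above 0 and 5 were under an unadjusted p of 0.05. The latter number was also 5 without the first and 6 without the second WT array at 22 °C, and 17 without the first or the third KO array at 22 °C. Ifit1 (0.97) and Oasl2 (0.78) kept differences near their values without it, while Igtp went from 1.18 to 0.42, Irgm2 from 1.08 to 0.55 and Gbp4 from 0.99 to 0.21.

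Macrophage markers were also higher on the KO arrays at 22 °C. The mean of 16 markers lay at 6.25, 6.58 and 6.27 there and at 5.86, 5.53 and 5.77 on the WT arrays. At an unadjusted p under 0.05, 13 of the 16 were higher, against 6.1% of all genes, with none called. In the cold the means were 6.19 to 6.53 in WT and 6.18 to 6.89 in KO. There 2 of the 16 markers were called higher in KO, where 0.911% of all genes passed. With cold, 8 of the 16 markers rose in WT, where 9.39% of all genes rose. In KO 5 rose and 1 fell, where 8.34% of all genes rose and 10.8% fell. The brown adipocyte list, 9 genes, had means of 8.78 to 9.12 on the KO arrays and 9.71 to 9.79 on the WT arrays at 22 °C. Of these 9, Dio2, Elovl3 and Ucp1 were called lower in KO, where 0.55% of all genes passed. The other 6 were not called, and the median difference of the 9 was -0.14. The part of either in the difference of the interferon-induced genes was not tested.

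**Figure D4:**
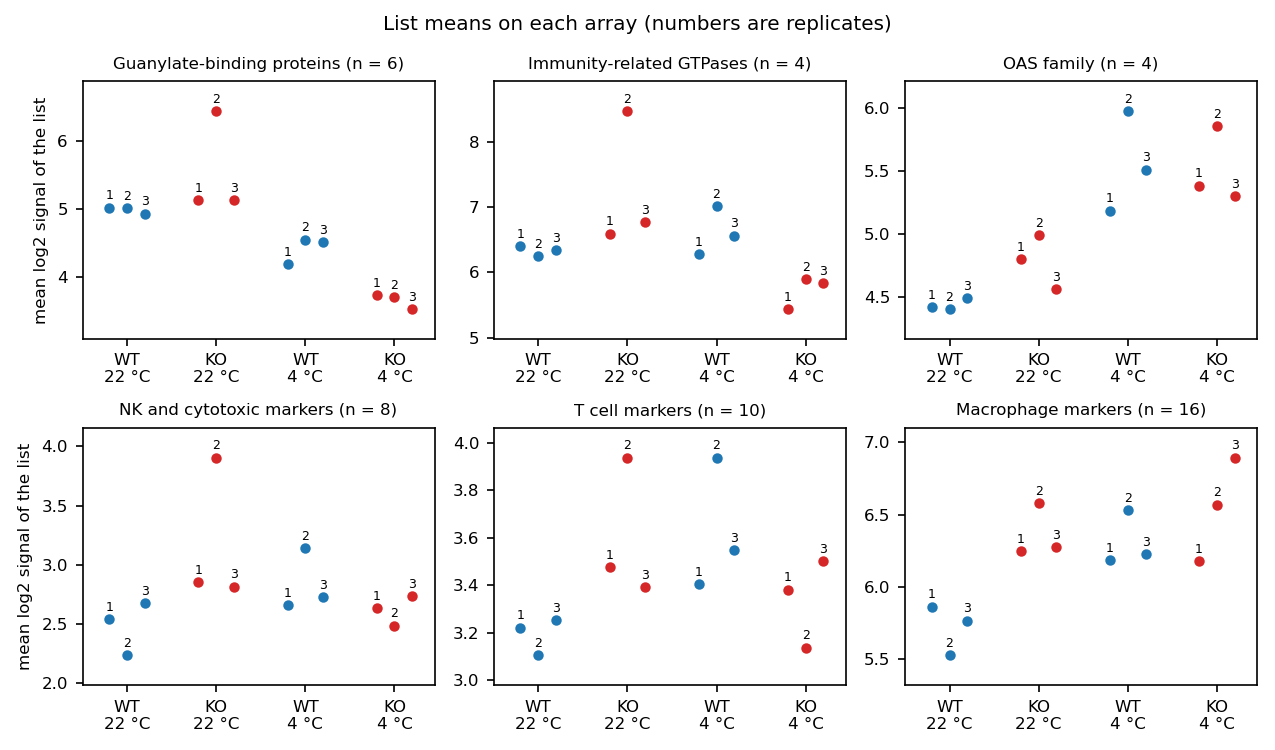
Mean log2 signal of 6 gene lists on each array (points numbered by replicate, WT in blue, KO in red), for the members that are GBPs, IRGs and OAS genes and for the NK, T cell and macrophage markers. The second KO array at 22 °C is the highest of 12 in the GBP (6.45), IRG (8.47) and NK (3.91) panels.

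In the cold the sign of the genotype difference turned for most members, and 1 of them passed. Gbp9 was lower in KO by 1.71 ± 0.23 (95% interval -2.21 to -1.21, limma adjusted p = 0.00701), where 0.911% of all genes passed and 0.55% were lower. All 3 KO arrays were below all 3 WT arrays, and the call was kept whichever of the 12 arrays was left out. Gbp4 was second, with a difference of -1.45 ± 0.48 (adjusted p = 0.196), and the groups were far apart (3.09 to 3.44 against 4.59 to 4.96). The pooled spread of Gbp4 takes in the second KO array at 22 °C (SD of 1.36 in that group). Without that array, which is not in this comparison, the same difference passed (adjusted p = 0.00709), and it also passed when only the 6 cold arrays were fitted (adjusted p = 0.025). The next member by p was Ifit3, at 4.53, 5.10 and 4.82 in KO and 5.18, 5.19 and 5.49 in WT (-0.47, adjusted p = 0.227).

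The median member difference in the cold was -0.32, against 0.01 over all genes, with 32 of 41 below 0. At an unadjusted p under 0.05, 7 members were lower and 0 higher, against 8.32% and 6.1% of all genes. With 1 array left out, members under this p numbered 2 (without the first KO array in the cold), 3 or 4 (without the second or the third WT array in the cold) and up to 15 (without the second KO array at 22 °C). For 13 members the KO arrays were all below the WT arrays, against 11.1% of all genes. These 13 included Gbp9, Gbp4, Gbp5, all 4 IRGs, Tap1 and Tap2. The members with the smallest p above 0 were Isg20 (0.25, adjusted p = 0.477), Mx1 (0.39, 0.591) and Gbp6 (0.14, 0.885). Both Mx1 (1.40, 2.30 and 2.15 in WT, 2.33, 2.96 and 1.72 in KO) and Gbp6 (1.53, 1.45 and 2.10 in WT, 2.66, 1.54 and 1.29 in KO) overlapped between genotypes and lay near or below the array medians. The mean of the NK markers in the cold was 2.66 to 3.14 in WT and 2.49 to 2.73 in KO, with 0 of 8 called, and that of the T cell markers was 3.40 to 3.94 in WT and 3.14 to 3.50 in KO, with 0 of 10 called. On the third KO array in the cold the 13 neutrophil markers averaged 3.94, against 2.02 to 2.65 on the other 11 arrays. Leaving out that array and the second KO array at 22 °C together left Gbp9 and Gbp4 called.

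**Figure D5:**
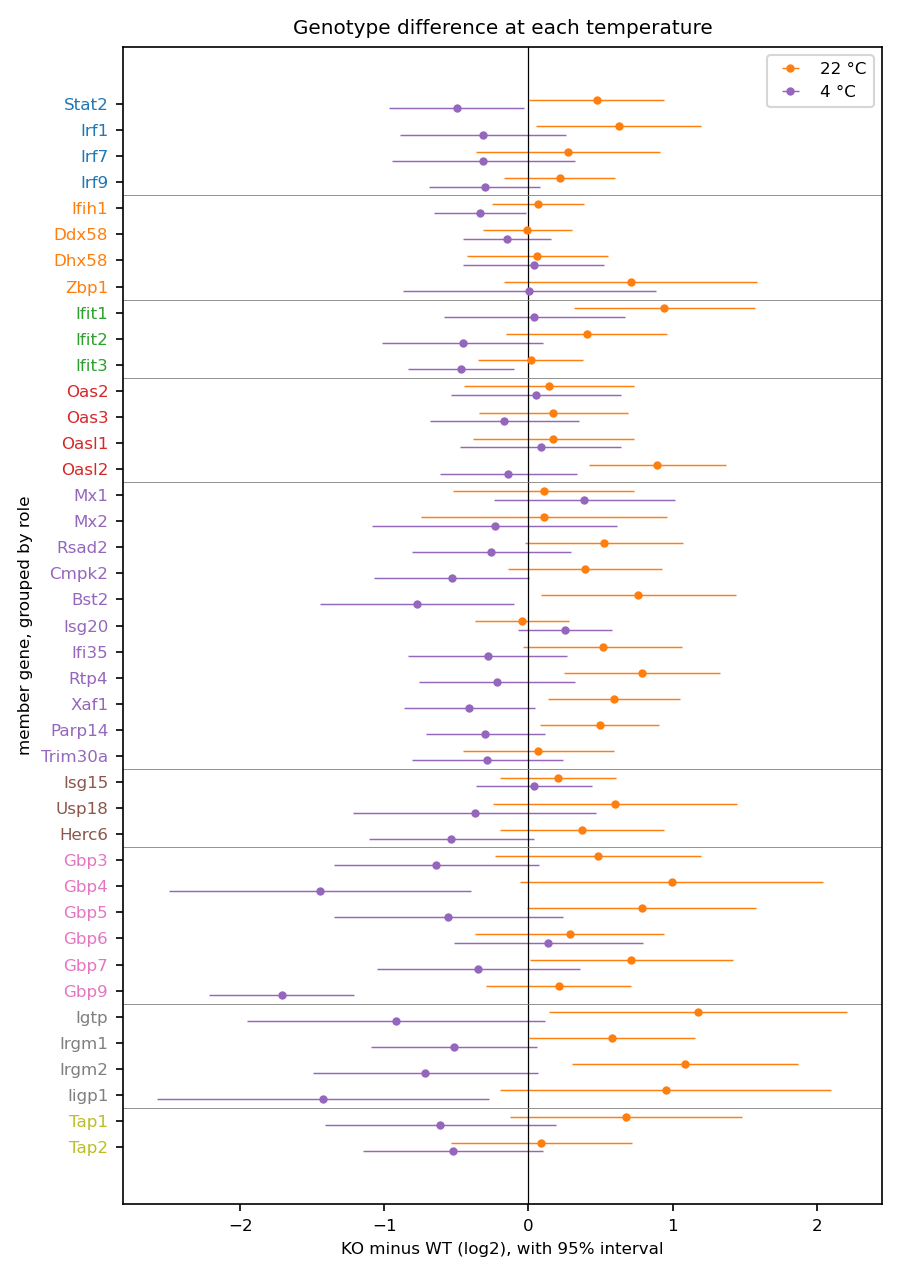
KO minus WT difference (log2) with its 95% interval for each of the 41 members at 22 °C and at 4 °C, grouped by role. At 22 °C 39 of the 41 points lie above 0, at 4 °C 32 lie below 0, and Gbp9 at 4 °C (-1.71) is the only one called.

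In all, 31 members were higher in KO than WT at 22 °C and lower in the cold, 9 had the same sign at both temperatures and 1 had the opposite order. The interaction was below 0 for 39 members, with a median of -0.86 against -0.01 over all genes. Without the second KO array at 22 °C its median was -0.61 and 7 members were above 0, and at 22 °C 32 members were higher in KO. With all arrays the member with the smallest p was Gbp9, at -1.92 ± 0.33 (limma, adjusted p = 0.0695). With the replicate number as a block Gbp9 passed (adjusted p = 0.028), although the numbers in the titles did not pair the arrays, and without the second KO array at 22 °C it was at -1.66 (adjusted p = 0.104). Next came Gbp4 (-2.44 ± 0.68, adjusted p = 0.271) and Irgm2 (-1.80 ± 0.51, adjusted p = 0.282). Isg20 (0.30) and Mx1 (0.28) were above 0 and not called.

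Other genes of the pathway were read from a list of 105, of which 92 were measured. In KO mice 21 fell and 6 rose with cold, where 10.8% of all genes fell and 8.34% rose. In WT mice 4 fell and 7 rose, where 7.98% and 9.39% of all genes did. The WT counts and the 6 that rose in KO were thus no larger a share of the list than of all genes. Of these calls, 18 of 27 in KO and 5 of 11 in WT were kept whichever array was left out, and the genes named next are among them unless stated. Of the 19 ligands measured, Ifng lay at 1.64 to 2.08 and Ifnb1 at 1.06 to 1.80 on all 12 arrays, below the array medians, while Ifna4 (4.41 to 6.54), Ifnl2 (3.80 to 5.48) and Ifnl3 (2.95 to 5.06) lay above them on every array. The only ligand called was Ifna11, higher with cold in KO (0.79, limma adjusted p = 0.0237), below the array medians at 0.77 to 2.23 and lost without the first (0.78, adjusted p = 0.0611), the second (0.80, 0.0607) or the third (0.79, 0.0607) KO array at 22 °C. Of the 6 receptor chains, 4 fell in KO and 3 in WT. Ifnar1, a chain of the type I receptor, fell by 0.63 in WT and 0.99 in KO, Il10rb, shared by the receptors of interferon lambda and interleukin 10, by 1.19 and 1.46, and Ifngr2, a chain of the gamma receptor, by 0.99 in KO.

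Of the genes that lead to interferon production, the kinase Tbk1 rose by 0.84 in WT and 0.66 in KO. The endosomal receptor Tlr3 fell by 0.77 in WT and 1.12 in KO. Its WT call was lost in 4 of 12 leave-one-out fits (-0.66 to -0.75, limma adjusted p = 0.0658 to 0.0821). Tlr9, an endosomal sensor of DNA, was the only gene of this list called between genotypes at 22 °C, higher in KO by 0.93 (limma, adjusted p = 0.0298), and it fell by 0.79 with cold in KO. That genotype call was lost without any 1 of the 6 arrays compared (0.87 to 1.01, adjusted p = 0.0594 to 0.113) and without the third WT array in the cold (adjusted p = 0.0539). Ifi204 and Ifi205, of the p200 family, rose in both genotypes. The rise of Ifi204 was 1.92 in WT and 1.05 in KO, and that of Ifi205 was 1.57 in each.

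Further induced genes fell in KO beside the members, among them Trim21 (-1.31), Tor3a (-1.16), Parp9 (-1.01), Parp12 (-0.87), Nmi (-0.86) and Pml (-0.84). Tor3a was also the only gene of the list called between genotypes in the cold (-0.73, limma adjusted p = 0.0394). This call of Tor3a was lost in 10 of 12 leave-one-out fits, every array but the second KO array of each temperature, with an adjusted p of up to 0.165 (without the second WT array in the cold). Psmb9, an immunoproteasome subunit next to Tap1, fell by 2.03 in KO (-1.36 without the second KO array at 22 °C). Without that array the KO differences of Trim21 and Parp12 were -1.08 and -0.75. Over all alternative settings the smallest KO differences of Parp9, Pml and Nmi were -0.69, -0.59 and -0.58, while that of Tor3a stayed between -1.28 and -1.03. The chemokines that attract T cells went opposite ways in KO. Cxcl9 fell by 1.19 (0.85 without the second KO array at 22 °C), and Cxcl10 rose by 2.62.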

How the data were processed

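Biotin-labelled cDNA from 400 ng of total RNA per sample was hybridised, per the labels' protocols. The deposited values are log2 signals that the authors made with RMA in oligo, and limma was among their tools, per the submitters' processing notes. RMA corrects background, equalises the distribution of the arrays and summarises each probe set; the log2 scale was read from the range of the values. Symbols came from the platform annotation. Of 41345 probe sets, 23521 had 1 symbol, 1814 had several and 16010 had none.

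A mean for each of the 4 groups was estimated over the 12 arrays together with limma 3.58.1 (R 4.3.3) and eBayes moderation. Tests were two-sided, with Benjamini-Hochberg adjustment over 22180 genes in each of 5 comparisons. The fit was tested on simulated data. Values on every array are given for members that passed and for the 3 of smallest p in each direction. Pathway genes named as changed are those that passed, but not every pathway gene that passed is named. Some interferon ligands are named for their levels although they did not pass. Zbtb7b, Ucp1 and Alb served as label checks. The members, the pathway and marker lists and the tests were chosen with earlier results of these data known. Motifs were searched in RefSeq promoter windows. Coordinates are those of that table.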

Additional observations from a re-analysis of the deposited data

How the results depend on the processing

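Alternatives covered probe set averaging, a filter keeping genes of mean log2 signal 5 or more, cyclic loess, median centring of arrays, trended robust moderation, weighting of arrays, a replicate block, fitting the 2 groups compared alone, and omission of each of the 12 arrays. An alternative chosen after seeing the data omitted the second KO array at 22 °C together with the third KO array in the cold. No member or pathway call changed sign in any of them, and 20 of 28 member calls and 16 of 40 pathway calls were kept in all settings where the gene was tested. Members called between genotypes in the cold numbered 1, but 0 with the signal filter, which leaves Gbp9 (mean 4.98) untested, 2 with only the arrays compared, 2 without the pair of arrays, and 1 to 2 with 1 array left out. With 1 array left out, members called with cold numbered 6 to 13 in WT (8 with all arrays; 13 without the second KO array at 22 °C) and 15 to 20 in KO, and 0 to 0 for the genotypes at 22 °C and for the interaction. The median differences then ranged from 0.18 to 0.56 (genotypes at 22 °C), -0.44 to -0.24 (genotypes in the cold), 0.21 to 0.44 (cold in WT), -0.64 to -0.36 (cold in KO) and -0.97 to -0.61 (interaction). With the replicate block 1 member, Gbp9, passed in the interaction. Deviations of same-numbered arrays correlated at -0.30 to 0.45, above 0.1 in 5 of 12 pairs, so the numbers were not taken as pairs. In 16 of 21 settings Ifi35 lost its call in KO. Levels near the array medians (2.63 to 2.83) limit what can be said of Mx1, Mx2, Gbp6, Oas3 and Isg15. Low levels in KO in the cold also limit the sizes given for Gbp9, Gbp4 and Gbp5.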
